A study of Mus musculus with 24 samples.

Results

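C2C12 myotubes kept for 72 h in vehicle medium after day 7 were set against C2C12 myotubes collected at day 7, the comparison in the study that follows the cultures through later maturation without dexamethasone. It uses 8 of the 24 mRNA-seq libraries, 4 per group, and these were chosen by their labels and by no measured value. C2C12 is an established mouse myoblast line, labelled wild type here. All 8 cultures were expanded in 10% fetal bovine serum (FBS) and moved at confluence to 2% FBS for 7 days. The vehicle 72 h cultures then received fresh medium with 2% FBS and 1% ethanol and were collected at day 10. The labels name this medium for the vehicle groups and do not state whether day 7 cultures had new medium or ethanol before collection, so longer culture, new medium and ethanol cannot be told apart. A vehicle 24 h group of 4 libraries, collected at day 8, stands between them and is given beside the main comparison where it helps. Nothing in the labels states that replicates were grown as separate cultures, and the p-values rest on the spread among these libraries, which could be technical.

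Myoblasts that leave the cell cycle fuse into myotubes and assemble sarcomeres, in which thick filaments of myosin pull on thin filaments of actin. Developing muscle uses embryonic and perinatal myosin heavy chains first and fast adult ones later, and during the same period it builds triads, where the voltage sensor of the surface membrane meets the calcium store. A differentiated culture also keeps unfused mononucleated cells, and some of these can still divide.

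Levels are in TPM, a transcript abundance scaled by length that sums to 1000000 in each library, so that a large rise in some genes lowers the rest. The number of reads behind them is not given in the tables. Between 12680 and 12899 genes reached 1 TPM in the 8 libraries. Myotube genes were abundant in both groups, with the 6 marker genes summing to between 13830 and 19830 TPM at vehicle 72 h and between 14100 and 14990 TPM at day 7, and 2 of the 6 rose. Adipoq, Plin1 and Cidec of adipocytes, Sp7 of osteoblasts, Myh11 and Myocd of smooth muscle, Adgre1, Csf1r and Ptprc of macrophages, Pecam1, Cdh5 and Kdr of endothelium, and Sox10 of Schwann cells were under 0.5 TPM in all 8 libraries. Other genes of the same marker lists were not: Acta2, which muscle cells in culture also express, made nearly all of a smooth muscle sum of 1475 to 2064 TPM at vehicle 72 h and 1348 to 2213 TPM at day 7. Runx2 of the osteoblast list lay between 11.4 and 17.3 TPM at vehicle 72 h and between 10.6 and 14.7 TPM at day 7, while Pparg of the adipocyte list and Cd68 of the macrophage list stayed under 5 TPM. None of these 4 passed the test. Fibroblast and tendon markers summed to between 300.2 and 416 TPM at vehicle 72 h and between 305 and 340.1 TPM at day 7, with 1 of 4 tested members higher, and Thy1 and Tnmd were under 0.5 TPM throughout.

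Libraries within the groups were not alike. Vehicle 72 h replicate 1 had some genes far above the other vehicle 72 h libraries that were also high in the dexamethasone 72 h libraries. Serpina3n, an acute phase gene, stood at 25.3 TPM there, against 0.0757, 0.0279 and 0.115 TPM in vehicle 72 h replicates 2 to 4, and at 200 TPM in dexamethasone 72 h replicate 1. By the rule written first, over 23 genes high in dexamethasone 72 h replicate 1 and nearly absent from vehicle 72 h replicates 2 to 4, the median level in vehicle 72 h replicate 1 was 0% of that in dexamethasone 72 h replicate 1, and 13 of the 23 were listed at 0. Over the 4 of them present in all dexamethasone 72 h libraries, a rule chosen after seeing the data, it was 13.2%. The same rule applied to vehicle 72 h replicates 2, 3 and 4 found 0 genes for each. It then required near absence from replicate 1 too, which barred the genes that replicate 1 holds. It therefore left no gene by which to judge those libraries. A sharing of material between these libraries was not tested. Vehicle 72 h replicate 3 had the highest share of mitochondrially encoded transcripts, 15.8% of TPM, against 9.28% to 11.6% in the other vehicle 72 h libraries and 7.74% to 8.91% at day 7. Day 7 replicate 1 had the highest summed level of cell cycle genes, 1155 TPM, against 576 to 779 TPM in the other day 7 libraries. The part these differences play in the results was not tested, and values without single libraries are given wherever they alter a result.

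Of 16257 genes tested, 1426 rose and 1678 fell at vehicle 72 h relative to day 7 at an adjusted p under 0.05. These are 19.1% of the genes tested, 8.77% higher and 10.3% lower. The test was limma on the deposited log2 values of all 24 libraries with Benjamini-Hochberg adjustment, and a gene said to have risen or fallen passed it. Without vehicle 72 h replicate 1 it called 2629 genes (16.2%), 1166 higher (7.17%) and 1463 lower (9%). The number depended most on vehicle 72 h replicate 3, without which 1207 genes passed (7.42%), 590 higher (3.63%) and 617 lower (3.8%). It was 1705 without day 7 replicate 2, 1868 without day 7 replicate 4 and 2505 in a fit of the 8 libraries alone. The balance between directions also depended on scaling: 45.9% of the calls were higher on the deposited values, 61.2% of 2546 on log2(TPM + 0.1), and 37.5% of 2760 when TPM was centred on each library's median. As shares of the genes tested, higher and lower calls came to 10.2% and 6.47% on log2(TPM + 0.1), 16.7% in all, and to 6.78% and 11.3% on median-centred TPM, 18.1% in all. On log2(TPM + 0.1) the median of all genes lay 0.11 above 0. Fold changes below are ratios of mean TPM, and log2 differences are on the deposited scale, which is compressed: its differences were about 0.648 times those of log2 TPM across 12737 genes.

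Fast and perinatal myosin heavy chain genes rose at vehicle 72 h relative to day 7, and embryonic Myh3 moved the other way. Of 9 heavy chain genes tested, 4 rose and 1 fell, beside 8.77% and 10.3% of all tested genes. Myh8, the perinatal heavy chain, had 153, 90.3, 112 and 107 TPM in the vehicle 72 h libraries, against 39.3, 22.5, 48.6 and 36.0 TPM in the day 7 libraries. Every vehicle 72 h library exceeded every day 7 library, and the means differed 3.16-fold (adjusted p = 0.00051). Myh2, the fast 2A chain, had 23.8, 16.0, 14.5 and 18.6 TPM at vehicle 72 h and 7.40, 5.23, 8.80 and 6.64 TPM at day 7. The groups did not overlap, and the rise was 2.6-fold (adjusted p = 0.000255). Myh1, the fast 2X chain, had 516, 339.5, 422 and 382 TPM at vehicle 72 h and 229, 157, 273 and 212 TPM at day 7, again with no overlap and with a rise of 1.91-fold (adjusted p = 0.00442). Myh4, the fast 2B chain, rose 2.67-fold (adjusted p = 0.0297), with replicates 1 and 3 at the top of the vehicle 72 h group at 101 and 100.0 TPM. The call on Myh4 was lost without vehicle 72 h replicate 1 or 3 or day 7 replicate 2 or 4 (adjusted p between 0.0606 and 0.113). Myh3 had 139, 122, 108 and 140.4 TPM in the vehicle 72 h libraries, against 219, 133, 232 and 176 TPM in the day 7 libraries. Day 7 replicate 2 lay inside the vehicle 72 h range, and the mean was 1.49-fold lower at vehicle 72 h (adjusted p = 0.0156). The call on Myh3 was lost without vehicle 72 h replicate 3 or day 7 replicate 1 (adjusted p between 0.0519 and 0.0658) and on log2(TPM + 0.1) (adjusted p = 0.087). The slow chain Myh7 did not pass, with 23.2 ± 7.06 TPM at vehicle 72 h and 25.9 ± 8.01 TPM at day 7 (adjusted p = 0.581; mean ± SD, n = 4 each, limma). 

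Among the 9 tested genes of the light chains and their kinases, 3 rose and 3 fell (33.3% each), beside 8.77% and 10.3% of all tested genes. Without vehicle 72 h replicate 3, the higher calls were 1 and the lower calls 0. Myl1, the alkali light chain of fast muscle, rose 1.86-fold with 8963, 4884, 9320 and 6064 TPM at vehicle 72 h and 4197, 3653, 4034 and 3829 TPM at day 7. The groups stood apart, with vehicle 72 h replicates 1 and 3 highest (adjusted p = 0.00985), and the call was lost without vehicle 72 h replicate 3 (adjusted p = 0.0509). Mylk2, the skeletal muscle kinase that phosphorylates the regulatory light chain, rose 2.08-fold, with a lowest vehicle 72 h value of 9.92 TPM above a highest day 7 value of 7.68 TPM (adjusted p = 0.00413). Myl4, the embryonic and atrial alkali chain, had 1969, 1549, 1404 and 1947 TPM at vehicle 72 h and 2586, 2033, 2071 and 2396 TPM at day 7. It was lower in every vehicle 72 h library (1.32-fold, adjusted p = 0.0364), and this call was lost without vehicle 72 h replicate 2 or 3 or day 7 replicate 1, 2 or 4 (adjusted p between 0.0667 and 0.135) and on log2(TPM + 0.1) (adjusted p = 0.106). Myl6b fell 1.46-fold (adjusted p = 0.0112) and was not called without vehicle 72 h replicate 3 (adjusted p = 0.059). Mylpf, the regulatory light chain of fast fibres and the most abundant of these transcripts, did not pass, at 8177 ± 1317 TPM at vehicle 72 h and 9208 ± 504 TPM at day 7 (mean ± SD, n = 4 each; adjusted p = 0.228 by limma). 

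Among 16 troponin, tropomyosin and leiomodin genes, 6 rose (37.5%, beside 8.77% of all tested genes) and none fell. The count was 3 without vehicle 72 h replicate 3. None of the 8 troponin genes passed. Tnnc1, the slow and cardiac calcium sensor, had 3852, 2815, 3715 and 3623 TPM at vehicle 72 h and 3312, 3265, 3511 and 3592 TPM at day 7, a ratio of 1.02 (adjusted p = 0.715). The genes that rose encode proteins that lie along or cap the actin filament. Lmod2, a leiomodin that promotes elongation at the pointed end, had 151, 147, 193 and 154 TPM in the vehicle 72 h libraries, against 50.3, 67.3, 76.8 and 62.6 TPM in the day 7 libraries. The groups were far apart relative to their spread, at 2.51-fold (adjusted p = 3.63e-05). Tmod1, the tropomodulin that caps the same end, had 86.0, 56.1, 83.8 and 66.9 TPM at vehicle 72 h and 33.9, 28.4, 37.0 and 33.0 TPM at day 7, and it rose 2.21-fold with no overlap (adjusted p = 0.000631). Tpm2, a tropomyosin, rose 1.56-fold (adjusted p = 0.00992). Tpm1 rose 1.43-fold (adjusted p = 0.0144) and lost its call without vehicle 72 h replicate 3 (adjusted p = 0.0681).

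Of 32 genes of the thin filament, Z-disc and M-band, 15 rose (46.9%, beside 8.77% of all tested genes) and none fell. The median log2 difference was 0.37, against 0.01 over all genes. The count was 7 without vehicle 72 h replicate 3, 8 without day 7 replicate 2 and 9 without vehicle 72 h replicate 1. Acta1, skeletal alpha actin, had 6016, 4729, 8407 and 6155 TPM in the vehicle 72 h libraries, against 3036, 2770, 3300 and 2783 TPM in the day 7 libraries. All vehicle 72 h libraries were above the day 7 libraries, with replicate 3 highest (2.13-fold, adjusted p = 0.00165). Neb, the giant ruler of the thin filament, had 200.5, 130.1, 194 and 146 TPM at vehicle 72 h and 55.3, 47.1, 104 and 64.3 TPM at day 7. It rose 2.48-fold (adjusted p = 0.00146). Xirp2, an actin-binding protein of the intercalated disc and Z-disc region, had 35.2, 31.2, 35.6 and 32.4 TPM at vehicle 72 h and 7.08, 9.17, 18.6 and 13.9 TPM at day 7. It rose 2.76-fold with the groups apart (adjusted p = 0.0025). Smpx, a small protein of the costamere, had 869, 348, 712 and 407 TPM in the vehicle 72 h libraries, against 219, 178, 173 and 217 TPM in the day 7 libraries. Replicates 1 and 3 were highest among the vehicle 72 h libraries, and the lowest of them was still above day 7 (2.97-fold, adjusted p = 0.00414). Pdlim3 of the Z-disc rose 2.29-fold (adjusted p = 0.00237), and Klhl41, a stabiliser of nebulin, rose 2.03-fold (adjusted p = 0.00322). Ttn, the titin gene, averaged 33.0 ± 6.71 TPM at vehicle 72 h and 17.4 ± 8.10 TPM at day 7 (SD, n = 4 each). Its ranges overlapped, and the call (adjusted p = 0.0226) was lost without vehicle 72 h replicate 1 or 3 or day 7 replicate 1 or 2 (adjusted p between 0.0672 and 0.0838). Des, desmin, the intermediate filament of the Z-disc, rose 1.53-fold (adjusted p = 0.0247) and was not called without vehicle 72 h replicate 1 or 3 or day 7 replicate 1, 2 or 4 (adjusted p between 0.05 and 0.102).

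**Figure D1:**
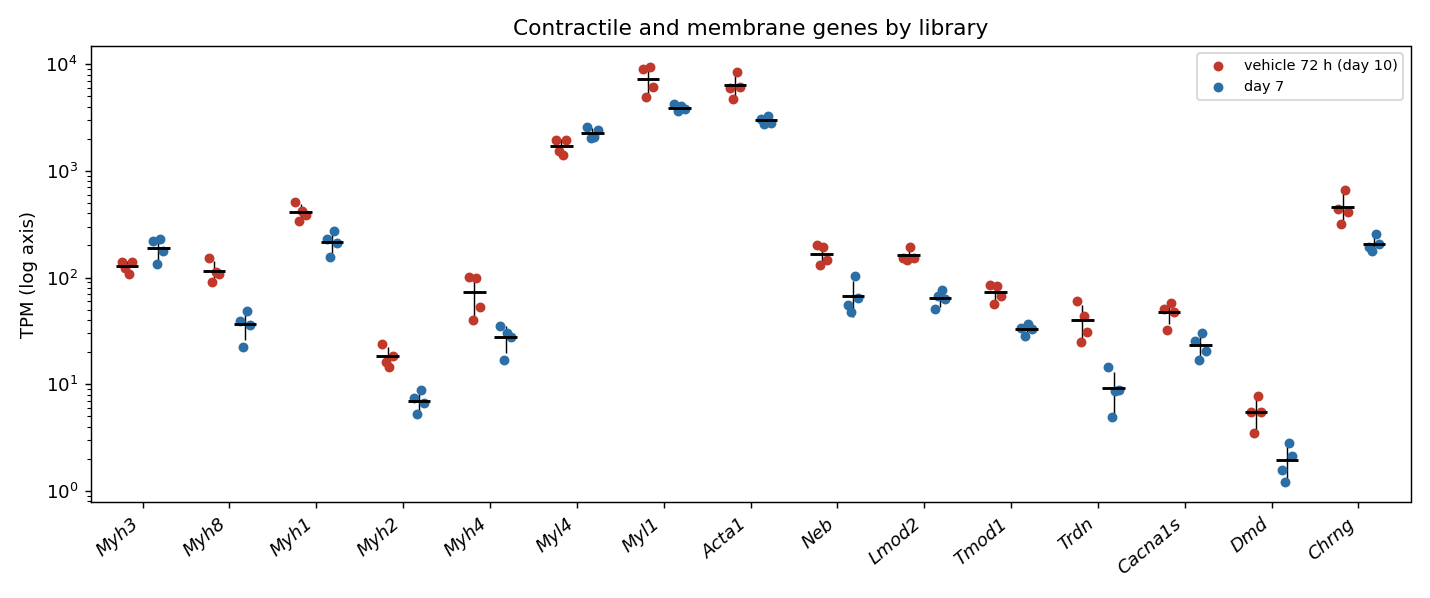
TPM of contractile and membrane genes on a log axis, 1 point per library, vehicle 72 h in red on the left of each pair and day 7 in blue on the right, with a bar at the mean and a line for the SD (n = 4). Myh8, Myh2, Lmod2 and Acta1 show separate groups, while Myh3 lies lower at vehicle 72 h with ranges that overlap.

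Muscle promoters are known for sites bound by MEF2 factors, which drive muscle genes. The letters CTA and TAG separated by any 4 bases, which read the same on both strands, occurred between 250 bases before and 50 bases after the start in 9 of the 23 thin filament, Z-disc and M-band genes with a window in the RefSeq table (39.1%), against 4.23% of 27025 genes with a window. Among those 23, the letters were present in 6 of the 9 called genes and in 3 of the 14 that were tested and not called. A match is a description of letters only. The 4 middle bases were not restricted, so a match need not be a MEF2 site. The Xirp2 and Smpx windows are shown because both genes rose and both carry a match, in capitals, its first base at -74 and -126 from the start (RefSeq, GRCm38.p6; Xirp2 at chr2:67445752-67446051, plus strand; Smpx at chrX:157698723-157699022, plus strand).
Xirp2: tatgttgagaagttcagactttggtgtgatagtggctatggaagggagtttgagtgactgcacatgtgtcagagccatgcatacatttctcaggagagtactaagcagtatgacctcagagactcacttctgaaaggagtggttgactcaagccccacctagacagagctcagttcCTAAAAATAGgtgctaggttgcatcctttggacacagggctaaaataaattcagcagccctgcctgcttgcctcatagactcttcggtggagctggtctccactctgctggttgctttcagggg
Smpx: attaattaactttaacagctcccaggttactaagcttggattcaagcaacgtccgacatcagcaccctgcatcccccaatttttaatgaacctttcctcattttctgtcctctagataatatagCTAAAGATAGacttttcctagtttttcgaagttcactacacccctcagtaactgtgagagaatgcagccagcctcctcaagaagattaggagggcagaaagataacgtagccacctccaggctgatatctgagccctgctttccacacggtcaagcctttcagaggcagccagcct

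Genes of the triad and of calcium handling moved with the sarcomere genes. Of 27 tested, 14 rose (51.9%, beside 8.77% of all tested genes) and none fell, with a median log2 difference of 0.36. The count was 7 without vehicle 72 h replicate 3, 8 without day 7 replicate 2 and 9 without day 7 replicate 4. Trdn, triadin, which anchors calsequestrin to the release channel, had 60.3, 24.6, 44.1 and 30.8 TPM in the vehicle 72 h libraries, against 14.4, 4.98, 8.56 and 8.79 TPM in the day 7 libraries. The groups did not overlap, and vehicle 72 h replicate 1 was highest (4.35-fold, adjusted p = 0.000964). Cacna1s, the voltage sensor itself, had 50.4, 32.2, 57.9 and 48.0 TPM at vehicle 72 h and 25.3, 17.0, 30.2 and 20.7 TPM at day 7. It rose 2.02-fold (adjusted p = 0.00277). Atp2a2, the calcium pump SERCA2 of slow and immature fibres, had 412, 350.0, 752 and 362 TPM at vehicle 72 h and 193, 180.3, 275 and 215 TPM at day 7. It rose 2.17-fold with no overlap (adjusted p = 0.00278). Stim1, the calcium sensor of the store, rose 2.15-fold (adjusted p = 0.00165), and Cacna2d1, an accessory subunit of the voltage sensor, rose 1.69-fold (adjusted p = 0.00767). Ryr1, the release channel, had 60.6, 38.9, 73.5 and 41.4 TPM at vehicle 72 h and 22.6, 21.1, 42.4 and 30.2 TPM at day 7. Vehicle 72 h replicates 2 and 4 lay within the day 7 range, and the call (adjusted p = 0.0123) was lost without vehicle 72 h replicate 3 (adjusted p = 0.064). Atp2a1, the SERCA1 pump of fast fibres, did not pass at 424 ± 149 TPM at vehicle 72 h and 233 ± 39.9 TPM at day 7 (SD, n = 4 each; adjusted p = 0.0674 by limma). Casq1, the calcium-binding protein of the fast fibre store, did not pass either (adjusted p = 0.283). 

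Membrane channels and pumps rose in 7 of 15 tested genes (46.7%, beside 8.77% of all tested genes) and fell in none. The count was 4 without vehicle 72 h replicate 3. Kcnn3, a potassium channel opened by calcium, had 17.9, 26.4, 35.4 and 18.7 TPM in the vehicle 72 h libraries, against 3.97, 5.57, 8.21 and 6.83 TPM in the day 7 libraries. The lowest vehicle 72 h value was above the highest day 7 value (4.0-fold, adjusted p = 0.000481). The dystrophin complex, which joins the cytoskeleton to the matrix, rose in 9 of 16 tested genes (56.2%) and fell in none. The count was 4 without vehicle 72 h replicate 3 or day 7 replicate 2. Dmd, dystrophin, had 5.49, 3.50, 7.69 and 5.52 TPM at vehicle 72 h and 1.58, 1.22, 2.84 and 2.14 TPM at day 7. It rose 2.85-fold (adjusted p = 0.0015). Sspn, sarcospan, had 56.9, 61.9, 80.0 and 53.4 TPM at vehicle 72 h and 27.2, 26.7, 29.8 and 30.0 TPM at day 7, a rise of 2.22-fold with narrow spread in both groups (adjusted p = 0.000103). Sgcd, delta-sarcoglycan, rose 1.72-fold (adjusted p = 0.00836). 

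At the neuromuscular junction, 7 of 21 tested genes rose (33.3%, beside 8.77% of all tested genes) and none fell. The count was 2 without vehicle 72 h replicate 3 or day 7 replicate 2 and 4 without day 7 replicate 1 or 4. Chrng, the fetal gamma subunit of the acetylcholine receptor, had 441, 316, 658 and 415 TPM in the vehicle 72 h libraries, against 195, 177, 255 and 206 TPM in the day 7 libraries. Its groups did not overlap (2.2-fold, adjusted p = 0.00297). Chrne, the adult epsilon subunit that replaces it in innervated muscle, did not pass, with 0.995, 0.354, 0.353 and 0.95 TPM at vehicle 72 h and 1.17, 0.531, 0.918 and 1.25 TPM at day 7 (adjusted p = 0.191, limma). Chrnd, the delta subunit, rose 1.83-fold (adjusted p = 0.0311), and its call was lost without vehicle 72 h replicate 1 or 3 or day 7 replicate 1, 2 or 4 (adjusted p between 0.0603 and 0.133) and on log2(TPM + 0.1) (adjusted p = 0.0569). Musk, the kinase that organises the synapse, rose 1.7-fold (adjusted p = 0.0389), lost without vehicle 72 h replicate 2 or 3 or day 7 replicate 1, 2 or 4 (adjusted p between 0.0557 and 0.178) and on log2(TPM + 0.1) (adjusted p = 0.05). 

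In the list of 21 genes for myogenic regulation and cell fusion, 4 rose (19%) and 1 fell (4.76%), beside 8.77% and 10.3% of all tested genes. Igfn1, which binds the Z-disc and is needed for fusion of C2C12 cells, had 35.2, 14.0, 46.5 and 18.4 TPM in the vehicle 72 h libraries, against 3.72, 2.96, 3.85 and 3.51 TPM in the day 7 libraries. Vehicle 72 h replicates 1 and 3 were highest and replicate 2 lowest, still above day 7 (8.13-fold, adjusted p = 0.000668). Both membrane proteins that carry out fusion were called, in opposite directions. Mymk, myomaker, had 994, 1004, 1245 and 1167 TPM at vehicle 72 h and 683, 693, 888 and 686 TPM at day 7, a rise of 1.5-fold (adjusted p = 0.01). Mymx, myomerger, had 142, 154, 181 and 173 TPM at vehicle 72 h and 215, 256, 234 and 237 TPM at day 7, a fall of 1.45-fold (adjusted p = 0.00295). Neither pair of groups overlapped. The transcription factors Myod1, Myog and Mef2c did not pass, with adjusted p of 0.838, 0.97 and 0.08. Myog had 1117, 1429, 1076 and 1400 TPM at vehicle 72 h and 954, 1342, 1210 and 1110 TPM at day 7. Of 20 genes of satellite and reserve cells, none rose and 2 fell (10%), near the 10.3% of all tested genes that fell. The 2 were Id2, by 1.52-fold (adjusted p = 0.00561), and Hes1, by 1.23-fold (adjusted p = 0.00784), both repressors that hold back differentiation. The Hes1 call was lost on log2(TPM + 0.1) (adjusted p = 0.0726). Pax7, the satellite cell factor, did not pass (adjusted p = 0.96). 

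Genes of the creatine kinase and myoglobin group rose in 5 of 8 tested genes (62.5%, beside 8.77% of all tested genes). The count was 3 without vehicle 72 h replicate 2 or 3 or day 7 replicate 1, 2 or 4 or on median-centred TPM. Mb, myoglobin, had 936, 492, 709.9 and 630.4 TPM in the vehicle 72 h libraries, against 265, 224, 202 and 220.5 TPM in the day 7 libraries. Replicates 1 and 3 led the vehicle 72 h group, with no overlap with day 7 (3.04-fold, adjusted p = 0.0015). Ampd1, the muscle AMP deaminase, rose 2.95-fold (adjusted p = 0.00669), while Ckm, the muscle creatine kinase, varied widely within both groups and did not pass: it had 226, 26.0, 70.5 and 39.7 TPM at vehicle 72 h and 126, 40.3, 45.2 and 59.1 TPM at day 7 (adjusted p = 0.997, limma). Ckmt2, the mitochondrial creatine kinase, was low, with 7.17, 1.06, 3.12 and 1.41 TPM at vehicle 72 h and 0.157, 0.158, 0.148 and 0.202 TPM at day 7, and it rose (adjusted p = 0.00413). Regulators of mitochondrial biogenesis and energy sensing rose in 8 of 20 (40%). The count was 4 without vehicle 72 h replicate 3 or on log2(TPM + 0.1) or on median-centred TPM and 5 without day 7 replicate 1 or 2. Perm1, a muscle coactivator that acts with PGC-1 and ERR factors, had 0.22, 0.0682, 0.368 and 0.155 TPM at vehicle 72 h and 0.0145, 0.0227, 0.0298 and 0.0361 TPM at day 7, and its partner Esrrg had 0.374, 0.151, 1.26 and 0.188 TPM at vehicle 72 h and 0.0618, 0.0567, 0.0902 and 0.0647 TPM at day 7. Both were separate between groups at low levels (0.00352 and 0.00528 as adjusted p). Mfn2, a mitofusin, rose 1.5-fold (adjusted p = 0.00501). Ppargc1a, PGC-1 alpha, averaged 0.646 ± 0.266 TPM at vehicle 72 h and 0.321 ± 0.117 TPM at day 7 (SD, n = 4 each); its call (adjusted p = 0.0388) was lost without vehicle 72 h replicate 2 or 3 or day 7 replicate 1, 2 or 4 (adjusted p between 0.0748 and 0.169) and on log2(TPM + 0.1) (adjusted p = 0.0549).

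Few genes of the respiratory chain passed. Of 40 nuclear genes of the chain, 1 rose and 2 fell (0 to 2 higher and 1 to 3 lower without single libraries), and of 13 mitochondrially encoded genes none passed, although their summed share of TPM was higher in each vehicle 72 h library than at day 7. On log2(TPM + 0.1), 6 nuclear and 4 mitochondrially encoded genes rose, and 4 mitochondrially encoded genes rose without vehicle 72 h replicate 2 and 3 without its replicate 4. Of 30 genes of glycolysis and glucose uptake, 5 rose (16.7%) and 4 fell (13.3%), not far from the 8.77% and 10.3% of all tested genes, with the higher calls 1 without vehicle 72 h replicate 3 and 3 without day 7 replicate 2 and the lower calls 1 without vehicle 72 h replicate 3 and 2 without day 7 replicate 2 or 4. Slc2a4, the insulin-responsive transporter GLUT4, had 2.88, 1.05, 4.24 and 0.911 TPM in the vehicle 72 h libraries, against 0.582, 0.484, 0.633 and 0.335 TPM in the day 7 libraries. The rise was 4.47-fold (adjusted p = 0.0144) and lost its call without vehicle 72 h replicate 3 (adjusted p = 0.0739). Aldoa, the muscle aldolase, had 3114, 1941, 3110 and 2353 TPM at vehicle 72 h and 1601, 1265, 1456 and 1334 TPM at day 7, a rise of 1.86-fold with no overlap (adjusted p = 0.00732). Pgam1 and Eno1, isoforms of phosphoglycerate mutase and enolase found widely outside muscle, fell 1.38-fold (adjusted p = 0.00953) and 1.28-fold (adjusted p = 0.0138), and neither was called without vehicle 72 h replicate 3. 

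Most cell cycle genes fell. Of 40 tested, 32 fell and none rose, beside 10.3% of all tested genes, and the median log2 difference was -1.31. In 28 of the 40, every vehicle 72 h library was below every day 7 library, against 7.48% of all tested genes. The count was 14 without vehicle 72 h replicate 3 and 21 without day 7 replicate 1. Of the 12 genes lowest by the naming rule, which takes called genes with at least 5 TPM in the higher group, 11 belong to mitosis or DNA replication, as far as their known roles go, and the other was Cthrc1, a secreted protein of the matrix, with 3.64, 3.58, 0.43 and 2.08 TPM at vehicle 72 h and 33.6, 14.7, 10.8 and 11.4 TPM at day 7. Its call (adjusted p = 0.0115) was lost without vehicle 72 h replicate 3 (adjusted p = 0.0586). Since these are bulk libraries, fewer dividing cells and less RNA per cell cannot be told apart.

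The genes that fell act in replication, entry into mitosis and the separation of chromosomes. Pclaf, a partner of PCNA at replication forks, had 3.28, 2.54, 0.332 and 2.70 TPM in the vehicle 72 h libraries, against 40.1, 12.9, 12.1 and 20.3 TPM in the day 7 libraries. The groups did not overlap, vehicle 72 h replicate 3 stood far below the other vehicle libraries, and day 7 replicate 1 stood far above the other day 7 libraries (9.63-fold lower, adjusted p = 0.00318). Ccnb1, cyclin B1, had 3.96, 3.03, 0.435 and 3.43 TPM at vehicle 72 h and 26.1, 8.46, 11.0 and 16.1 TPM at day 7. The same libraries were at the extremes (5.68-fold lower, adjusted p = 0.00378). Ccnb2, cyclin B2, had 2.93, 3.06, 0.29 and 2.89 TPM at vehicle 72 h and 24.2, 8.32, 10.0 and 14.9 TPM at day 7, which was 6.27-fold lower (adjusted p = 0.00277). Cdk1, the kinase that both cyclins activate, had 23.2, 15.5, 8.58 and 15.6 TPM in the vehicle 72 h libraries, against 86.4, 38.2, 38.3 and 57.6 TPM in the day 7 libraries. It fell 3.51-fold (adjusted p = 0.00346). Cenpa, the histone of the centromere, had 6.12, 5.08, 0.953 and 5.23 TPM at vehicle 72 h and 50.9, 21.2, 21.7 and 31.2 TPM at day 7, and it fell 7.19-fold with no overlap (adjusted p = 0.00161). The kinetochore genes Ndc80 and Nuf2 fell 6.07-fold (adjusted p = 0.00502) and 5.5-fold (adjusted p = 0.00639), Birc5, survivin, fell 5.64-fold (adjusted p = 0.00584), and Pttg1, securin, fell 6.06-fold (adjusted p = 0.0015). Pbk, a mitotic kinase, Depdc1a and Pimreg fell 5.86-fold, 5.92-fold and 6.24-fold, with adjusted p of 0.00783, 0.00525 and 0.00602. 

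Rrm2 and Pcna, which serve DNA synthesis, fell by smaller factors. Rrm2, the ribonucleotide reductase subunit, had 80.1, 96.7, 71.3 and 98.1 TPM in the vehicle 72 h libraries, against 143, 134, 156 and 155 TPM in the day 7 libraries, a fall of 1.7-fold with no overlap (adjusted p = 0.00347). Pcna, the sliding clamp, fell 1.39-fold (adjusted p = 0.0154) and lost its call without vehicle 72 h replicate 3 or day 7 replicate 1 (adjusted p between 0.0524 and 0.0557). The 8 members that did not pass were Mcm2, Mcm3, Mcm4, Mcm6, Cdc6, Cdt1, Ccnd1 and E2f1, most of which license or start replication. Other genes of the same step, Mcm5, Mcm7 and Ccne2, did fall. Each of their calls was lost without vehicle 72 h replicate 3 and also without day 7 replicate 1. Ccnd1, cyclin D1, averaged 8.85 ± 6.06 TPM at vehicle 72 h and 11.2 ± 10.1 TPM at day 7 (SD, n = 4 each; adjusted p = 0.739 by limma). Mki67, the proliferation marker, had 1.65, 1.04, 0.0688 and 0.996 TPM at vehicle 72 h and 6.95, 1.40, 2.53 and 2.85 TPM at day 7; its groups overlapped, and the call (adjusted p = 0.0309) was lost without vehicle 72 h replicate 3 or day 7 replicate 1 or 4 (adjusted p between 0.0624 and 0.151). Of 7 cell cycle inhibitors none rose and 2 fell (28.6%, beside 10.3% of all tested genes), among them Cdkn2c, p18, by 1.55-fold (adjusted p = 0.000866). The lower calls were 1 without vehicle 72 h replicate 1, 3 or 4 or day 7 replicate 2 or 4 or on log2(TPM + 0.1). Cdkn1a, p21, which holds myotubes out of the cycle, was abundant and did not pass, with 1776, 2059, 2042 and 2365 TPM at vehicle 72 h and 1868, 2244, 2553 and 2104 TPM at day 7 (adjusted p = 0.434, limma). 

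**Figure D2:**
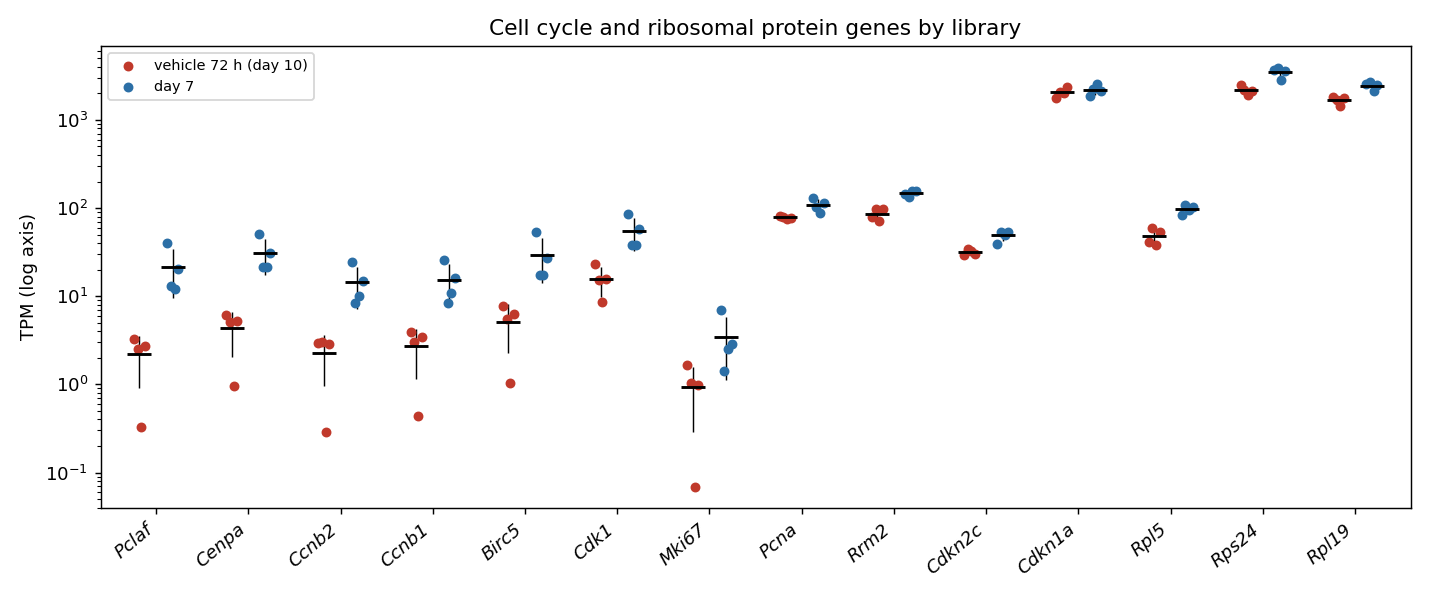
TPM of cell cycle and ribosomal protein genes on a log axis, 1 point per library, vehicle 72 h in red on the left of each pair and day 7 in blue on the right, with a bar at the mean and a line for the SD (n = 4). The lowest red point of each mitotic gene is vehicle 72 h replicate 3, and the highest blue point is day 7 replicate 1.

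The promoters of mitotic genes are known for pairs of elements, CCAAT boxes bound by NF-Y and the cell cycle genes homology region (CHR, TTTGAA) bound by the DREAM and MuvB complexes. In the 300 base windows of the RefSeq table, searched on both strands, CCAAT occurred in 25 of the 33 cell cycle genes with a window (75.8%), against 41.1% of 27025 genes, and it was as frequent in the windows of clock genes, 13 of 16 (81.2%). TTTGAA occurred in 14 of the 33 (42.4%), against 20.2% of all. Windows with both made up 14 of the 33, against 7.97% of all. Among the 27 called genes with a window 13 had both, and among the 6 not called 1 had both. The windows of Ccnb2, Cdk1 and Cenpa are shown because these genes fell and carry both elements. Capitals mark CCAAT, or ATTGG where it lies on the other strand, and TTTGAA (RefSeq, GRCm38.p6; Ccnb2 at chr9:70421505-70421804, minus strand; Cdk1 at chr10:69352863-69353162, minus strand; Cenpa at chr5:30666636-30666935, plus strand).
Ccnb2: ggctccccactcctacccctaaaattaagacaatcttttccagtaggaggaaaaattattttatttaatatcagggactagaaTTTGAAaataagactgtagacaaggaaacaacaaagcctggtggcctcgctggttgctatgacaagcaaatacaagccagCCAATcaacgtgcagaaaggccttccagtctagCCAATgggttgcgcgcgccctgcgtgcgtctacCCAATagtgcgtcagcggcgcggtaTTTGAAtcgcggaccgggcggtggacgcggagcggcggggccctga
Cdk1: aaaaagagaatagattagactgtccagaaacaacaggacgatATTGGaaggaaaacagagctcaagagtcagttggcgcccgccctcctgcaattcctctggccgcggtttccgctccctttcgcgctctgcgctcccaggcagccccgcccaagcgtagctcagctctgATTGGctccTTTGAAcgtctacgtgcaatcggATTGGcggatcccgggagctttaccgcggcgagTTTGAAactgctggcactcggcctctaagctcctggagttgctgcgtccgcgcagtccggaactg
Cenpa: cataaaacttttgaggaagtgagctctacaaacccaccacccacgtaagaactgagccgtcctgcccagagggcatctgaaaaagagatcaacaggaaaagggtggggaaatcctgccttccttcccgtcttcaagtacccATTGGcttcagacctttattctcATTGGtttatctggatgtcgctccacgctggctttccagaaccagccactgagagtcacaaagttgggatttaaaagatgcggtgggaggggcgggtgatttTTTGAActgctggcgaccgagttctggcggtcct
In Ccnb2 the CCAAT boxes begin 87, 54 and 21 bases before the start, and the later TTTGAA begins at base 4 after it. No overlap between the 2 elements was present in these 3 windows.

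Ribosomal protein genes fell in nearly all members and by a smaller amount. Of 34 cytosolic ribosomal protein genes tested, 31 fell and none rose, beside 10.3% lower among all tested genes. The median log2 difference was -0.43. In 29 of the 34, every vehicle 72 h library was below every day 7 library, against 7.48% of all tested genes. The summed level of the list was between 28630 and 36200 TPM at vehicle 72 h and between 40460 and 50690 TPM at day 7. Rpl5, which carries 5S rRNA into the large subunit, had 41.8, 60.0, 38.1 and 54.2 TPM in the vehicle 72 h libraries, against 83.0, 108, 94.2 and 104 TPM in the day 7 libraries. It fell 2.01-fold (adjusted p = 0.00158). Rps24 had 2469, 2192, 1896 and 2158 TPM at vehicle 72 h and 3683, 3936, 2851 and 3636 TPM at day 7, a fall of 1.62-fold with the groups apart (adjusted p = 0.00776). The count was 9 without vehicle 72 h replicate 3 and 14 without day 7 replicate 2. These genes have many near-identical pseudogenes, between which reads can be divided, so single values are uncertain.

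Of 33 proteasome subunits, 10 fell (30.3%, beside 10.3% of all tested genes) and none rose. The count was 1 without vehicle 72 h replicate 3 or day 7 replicate 2, 3 without day 7 replicate 4 and 5 without vehicle 72 h replicate 2. Psme1, of the PA28 activator, fell 1.5-fold (adjusted p = 0.00706), and its groups did not overlap. Of 40 autophagy and lysosome genes, 8 rose (20%, beside 8.77% of all tested genes) and 3 fell (7.5%, under the 10.3% of all genes). The higher calls were 4 without vehicle 72 h replicate 3 and 5 without day 7 replicate 1, 2 or 4. The lower calls were 1 without vehicle 72 h replicate 3 or day 7 replicate 1 or 4. Atg9a, the lipid scramblase of the early autophagosome, had 42.9, 42.1, 66.3 and 43.2 TPM at vehicle 72 h and 27.1, 24.5, 33.7 and 27.4 TPM at day 7, a rise of 1.73-fold (adjusted p = 0.00274), and Tfeb, which switches on lysosomal genes, rose 1.53-fold (adjusted p = 0.00774). Depp1, an autophagy regulator under FoxO control, fell 1.81-fold (adjusted p = 0.0051). Ubiquitin ligases linked to atrophy rose in 5 of 23 (21.7%, beside 8.77% of all tested genes) and fell in none. Asb2, which marks filamins and other sarcomere proteins for breakdown, had 30.5, 26.0, 41.9 and 22.3 TPM in the vehicle 72 h libraries, against 5.80, 6.91, 7.45 and 5.40 TPM in the day 7 libraries. The groups were well apart (4.72-fold, adjusted p = 4.82e-05). Trim63, MuRF1, had 44.9, 40.3, 56.1 and 42.1 TPM at vehicle 72 h and 17.7, 23.6, 28.6 and 23.8 TPM at day 7, a rise of 1.96-fold (adjusted p = 0.00234). Asb15 and Fbxo31 rose 6.38-fold (adjusted p = 0.000103) and 1.83-fold (adjusted p = 0.00194). Fbxo32, atrogin-1, rose 1.72-fold (adjusted p = 0.0395) and was not called without vehicle 72 h replicate 1 or 3 or day 7 replicate 1, 2 or 4 (adjusted p between 0.0591 and 0.166). 

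Several output and repressor genes of the circadian clock rose. Of 19 clock genes tested, 8 rose (42.1%, beside 8.77% of all tested genes) and none fell. The count without single libraries lay between 6 and 9. The clock runs on a loop in which CLOCK and ARNTL drive Per, Cry and Rev-erb genes that then repress it, and PAR bZIP factors carry its output. Dbp, a PAR bZIP factor, had 28.1, 37.6, 54.1 and 45.9 TPM in the vehicle 72 h libraries, against 16.6, 14.3, 13.1 and 15.5 TPM in the day 7 libraries. No library of one group reached the other (2.79-fold, adjusted p = 0.000478). Tef, of the same family, had 96.1, 113, 139 and 99.1 TPM at vehicle 72 h and 58.1, 56.2, 72.2 and 63.5 TPM at day 7. It rose 1.79-fold (adjusted p = 0.00051). Nr1d1, Rev-erb alpha, had 39.4, 43.0, 62.8 and 51.4 TPM at vehicle 72 h and 23.5, 21.5, 25.3 and 20.4 TPM at day 7, a rise of 2.17-fold with no overlap (adjusted p = 0.00227). Per1, Per2 and Cry2 rose 1.86-fold, 1.81-fold and 1.64-fold, with adjusted p of 0.00346, 0.0119 and 0.00639. The activators Arntl and Clock did not pass. Arntl averaged 8.44 ± 0.835 TPM at vehicle 72 h and 8.55 ± 0.787 TPM at day 7 (SD, n = 4 each; adjusted p = 0.501 by limma). The labels give no hour of collection, and a difference in hour between the groups was not tested. CACGTG, the E-box that CLOCK and ARNTL bind and that reads the same on both strands, was in the promoter windows of 5 of the 16 clock genes with one (31.2%), against 8.09% of all genes, and in 2 of the 7 called and 3 of the 9 not called. The Tef window is shown as a member that rose and carries it, its first base at -127 from the start (RefSeq, GRCm38.p6, chr15:81802423-81802722, plus strand, 1 of 2 windows of the gene).
Tef: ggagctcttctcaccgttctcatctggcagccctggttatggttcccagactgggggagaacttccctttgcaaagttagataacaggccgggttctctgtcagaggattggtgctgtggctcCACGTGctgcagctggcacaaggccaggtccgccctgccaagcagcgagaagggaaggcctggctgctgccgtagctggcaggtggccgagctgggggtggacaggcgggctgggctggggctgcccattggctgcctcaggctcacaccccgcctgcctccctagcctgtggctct

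Per1 and some other genes above are also targets of the glucocorticoid receptor, and neither group was given dexamethasone. Of 29 targets tested, 9 rose (31%, beside 8.77% of all tested genes) and none fell. The count was 7 without day 7 replicate 1 or 3, and 6 without day 7 replicate 2 or 4 or vehicle 72 h replicate 3. It was also 6 without vehicle 72 h replicate 1, the library in which Serpina3n was high. Klf15, a muscle factor that such hormones induce, had 1.44, 1.10, 1.65 and 1.23 TPM in the vehicle 72 h libraries, against 0.115, 0.397, 0.45 and 0.313 TPM in the day 7 libraries. It was 4.26-fold higher (adjusted p = 0.00821) and was called without that replicate (adjusted p = 0.019). Hsd11b1, the enzyme that regenerates active glucocorticoid, had 131, 228, 238 and 192 TPM at vehicle 72 h and 39.5, 92.3, 72.3 and 87.0 TPM at day 7, a rise of 2.71-fold (adjusted p = 0.00584). Nr3c1, the receptor, rose 1.6-fold (adjusted p = 0.00603), and Klf9 rose 1.97-fold (adjusted p = 0.00949). Tsc22d3, GILZ, had 108, 55.7, 58.1 and 53.6 TPM at vehicle 72 h and 40.8, 37.1, 40.4 and 47.5 TPM at day 7. Its call (adjusted p = 0.0481) was lost without vehicle 72 h replicate 1 or 3 or day 7 replicate 1, 2, 3 or 4 (adjusted p between 0.0619 and 0.184). Glul was likewise not called without vehicle 72 h replicate 1 or 3 or day 7 replicate 2, 3 or 4 (adjusted p between 0.0617 and 0.119).

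**Figure D3:**
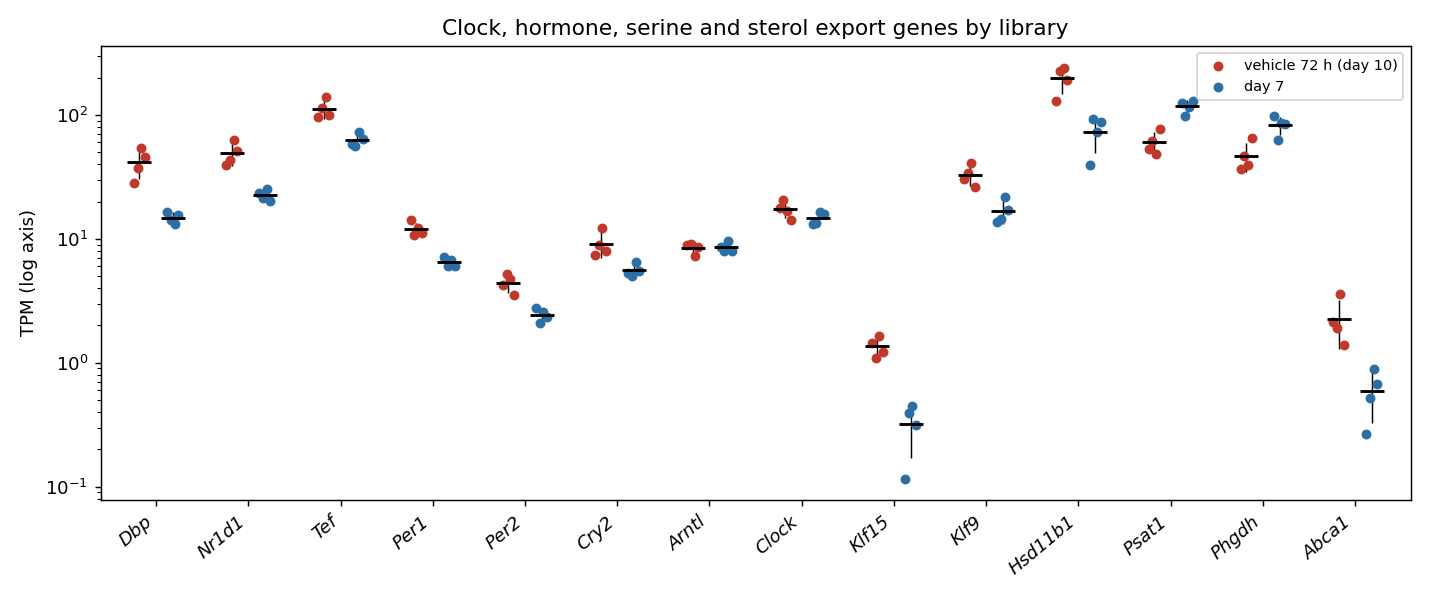
TPM of clock, hormone-responsive, serine synthesis and sterol export genes on a log axis, 1 point per library, vehicle 72 h in red on the left of each pair and day 7 in blue on the right, with a bar at the mean and a line for the SD (n = 4). Dbp, Tef and Nr1d1 are higher in all 4 vehicle 72 h libraries, and Psat1 is lower in all 4.

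Lipid synthesis genes moved mostly downward where they passed. Of 29 cholesterol and fatty acid synthesis genes, 9 fell (31%) and 3 rose (10.3%), beside 10.3% lower and 8.77% higher among all tested genes. The higher calls were 1 without vehicle 72 h replicate 3 or day 7 replicate 1. The lower calls numbered 2 without vehicle 72 h replicate 3, 3 without day 7 replicate 1 and 4 without day 7 replicate 4. Fdft1, squalene synthase, had 31.7, 40.2, 25.9 and 44.5 TPM at vehicle 72 h and 59.2, 51.9, 57.1 and 58.9 TPM at day 7, a fall of 1.59-fold (adjusted p = 0.00666). Abca1, an LXR target that exports cholesterol, had 2.12, 1.90, 3.58 and 1.38 TPM at vehicle 72 h and 0.265, 0.517, 0.888 and 0.676 TPM at day 7. It rose 3.82-fold (adjusted p = 0.00656). The 3 enzymes of serine synthesis also fell. Psat1 had 52.9, 61.1, 48.6 and 77.3 TPM in the vehicle 72 h libraries, against 125, 98.4, 116 and 129 TPM in the day 7 libraries, a fall of 1.96-fold with no overlap (adjusted p = 0.000631). Phgdh, the first enzyme of the route, had 36.8, 46.6, 39.5 and 64.6 TPM at vehicle 72 h and 97.6, 63.1, 86.2 and 84.1 TPM at day 7. The lowest day 7 value lay just below the highest vehicle 72 h value, and it fell 1.76-fold (adjusted p = 0.00502). Psph fell 1.52-fold (adjusted p = 0.00425), and Aldh1l2, of mitochondrial folate metabolism, fell 1.98-fold (adjusted p = 0.00502). In the list of 27 stress response and amino acid genes that holds them, 5 fell (18.5%) and 2 rose (7.41%). The higher calls were 1 without vehicle 72 h replicate 3. Both shares lay not far from those of all tested genes. Among those that rose was Cebpb (1.75-fold, adjusted p = 0.00978). 

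Of 28 genes of insulin and IGF signalling, 8 rose (28.6%) and 1 fell (3.57%), against 8.77% and 10.3% of all tested genes, with the higher calls 2 without vehicle 72 h replicate 3, 4 without day 7 replicate 2 or 4 and 5 without day 7 replicate 1. The gene that fell, Igfbp2, encodes a secreted binding protein of IGFs and had 16.1, 25.6, 31.6 and 29.4 TPM in the vehicle 72 h libraries, against 198, 60.7, 125 and 92.2 TPM in the day 7 libraries. It was 4.63-fold lower, with no overlap (adjusted p = 0.00194). Akt2, the kinase of the insulin response in muscle, rose 1.44-fold (adjusted p = 0.00732). Irs2, an adaptor of the insulin receptor, rose 1.99-fold (adjusted p = 0.0177) and was not called without vehicle 72 h replicate 3 (adjusted p = 0.0738). Of 26 genes of myostatin and TGF-beta signalling, 9 rose (34.6%) and 3 fell (11.5%, close to the share of all genes), with the lower calls 0 on log2(TPM + 0.1) and 1 without vehicle 72 h replicate 3 or day 7 replicate 1 or 2 or on median-centred TPM. The ligands Tgfb1 and Tgfb3 rose 1.53-fold (adjusted p = 0.00584) and 1.44-fold (adjusted p = 0.00334). The receptors Tgfbr1 and Acvr2b rose 1.84-fold (adjusted p = 0.00462) and 2.62-fold (adjusted p = 0.00599), Acvr2b with 0.767, 0.822, 1.14 and 1.07 TPM at vehicle 72 h and 0.358, 0.247, 0.476 and 0.37 TPM at day 7. Tgfbi, a matrix protein named for its induction by TGF-beta, had 0.0794, 0.0722, 0.0348 and 0.0627 TPM at vehicle 72 h and 0.192, 0.21, 0.204 and 0.146 TPM at day 7. It fell 3.02-fold (adjusted p = 0.00303). Ccn2, CTGF, which TGF-beta and YAP both induce, rose 2.4-fold (adjusted p = 0.00389). 

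Matrix and secreted genes changed in few members. Of 22 collagens 2 rose (9.09%) and 1 fell (4.55%), and of 43 other matrix genes 2 rose (4.65%) and 1 fell (2.33%). Over all tested genes the shares were 8.77% higher and 10.3% lower. Without single libraries the collagen counts lay between 1 and 2 higher with 1 lower, and those of the other matrix genes between 1 and 3 higher and between 0 and 2 lower. Col18a1, the source of endostatin, had 9.82, 16.7, 8.74 and 14.0 TPM at vehicle 72 h and 24.5, 31.2, 46.9 and 27.9 TPM at day 7, a fall of 2.65-fold (adjusted p = 0.00219). Fbln1 and Fbln7, fibulins, were among the 12 genes highest by the naming rule. Fbln7 had 40.9, 60.1, 30.9 and 56.2 TPM in the vehicle 72 h libraries, against 9.16, 8.90, 6.88 and 10.1 TPM in the day 7 libraries. The groups were well separated (5.37-fold, adjusted p = 0.00655). Fbln1 had 60.3, 37.2, 39.5 and 39.6 TPM at vehicle 72 h and 13.8, 10.0, 9.05 and 11.3 TPM at day 7, with vehicle 72 h replicate 1 highest (4.0-fold, adjusted p = 0.0132). P3h2, a prolyl hydroxylase of basement membrane collagen, had 5.58, 7.25, 6.90 and 5.72 TPM at vehicle 72 h and 1.39, 1.76, 2.44 and 1.90 TPM at day 7, a rise of 3.4-fold with the smallest adjusted p of the genes named here (adjusted p = 2.06e-05). Plaur, the urokinase receptor, fell 2.62-fold (adjusted p = 0.0051). Among 12 smooth muscle markers 2 rose and 2 fell (16.7% each), with the higher calls 1 without vehicle 72 h replicate 1 or 3 or day 7 replicate 1, 2 or 4 and the lower calls 0 without vehicle 72 h replicate 3 or day 7 replicate 1. Cnn1, calponin, was at 0.216, 0.363, 0.0492 and 0.487 TPM at vehicle 72 h and 7.04, 1.12, 1.34 and 0.62 TPM at day 7, and its call (adjusted p = 0.0215) was lost without vehicle 72 h replicate 3 or day 7 replicate 1 (adjusted p between 0.0868 and 0.0921). Of 27 chemokine and cytokine genes, 4 rose and 4 fell (14.8% each, against 8.77% and 10.3% of all genes); the higher calls were 2 without vehicle 72 h replicate 3 or day 7 replicate 4, and the lower calls were 2 without vehicle 72 h replicate 2 or 3 or day 7 replicate 2 or 4 or on log2(TPM + 0.1). Cx3cl1, fractalkine, had 27.8, 23.0, 24.7 and 23.9 TPM at vehicle 72 h and 10.9, 7.67, 9.86 and 9.23 TPM at day 7, a rise of 2.63-fold (adjusted p = 0.000469), and Il18 fell 1.68-fold (adjusted p = 0.00509). Interferon and antigen presentation genes fell in 5 of 30 (16.7%) and rose in 1 (3.33%), not far from the shares of all tested genes. The higher call was 0 without vehicle 72 h replicate 1 or 3 or day 7 replicate 1, 3 or 4 or on median-centred TPM. The lower calls were 0 without vehicle 72 h replicate 3 or day 7 replicate 1 or 4, 1 without day 7 replicate 2 or on log2(TPM + 0.1) and 2 without vehicle 72 h replicate 1 or 2.

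The remaining genes among the 12 highest by the naming rule are enzymes, a chaperone and a channel. Cyp2f2, a cytochrome P450, had 6.20, 3.55, 7.61 and 4.78 TPM in the vehicle 72 h libraries, against 0.129, 0.293, 0.277 and 0.664 TPM in the day 7 libraries. It rose 16.2-fold on low day 7 levels (adjusted p = 0.00166). Akr1c14, a hydroxysteroid dehydrogenase, had 13.4, 11.6, 12.3 and 9.04 TPM at vehicle 72 h and 2.03, 2.10, 1.65 and 2.08 TPM at day 7, with a rise of 5.9-fold and no overlap (adjusted p = 0.000255). Adh1, alcohol dehydrogenase 1, had 3.25, 6.09, 6.86 and 4.51 TPM at vehicle 72 h and 0.747, 1.16, 1.45 and 1.30 TPM at day 7. Its rise of 4.44-fold (adjusted p = 0.0143) was not called without vehicle 72 h replicate 3 (adjusted p = 0.057). Of the 13 tested genes of ethanol and aldehyde metabolism, 2 rose and 2 fell, and none passed without that replicate. Each count was 15.4% of the list, not far from the 8.77% higher and 10.3% lower among all tested genes. The lower calls were 0 without vehicle 72 h replicate 2 or 3 or day 7 replicate 1, 2 or 4 or on log2(TPM + 0.1) and 1 without vehicle 72 h replicate 1. The vehicle medium contained ethanol, whose part cannot be told apart from that of time. Hspb7, a small heat shock protein of muscle, had 138, 44.6, 146 and 85.5 TPM in the vehicle 72 h libraries, against 21.2, 16.9, 24.4 and 23.1 TPM in the day 7 libraries. Replicate 2 was lowest of the vehicle 72 h libraries and above all of day 7 (4.84-fold, adjusted p = 0.000502). Aqp1, a water channel, had 31.1, 34.4, 32.1 and 30.5 TPM at vehicle 72 h and 11.6, 7.63, 7.57 and 8.34 TPM at day 7. The 4 vehicle 72 h values were close together, 3.65-fold above day 7 (adjusted p = 0.00125). 

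**Figure D4:**
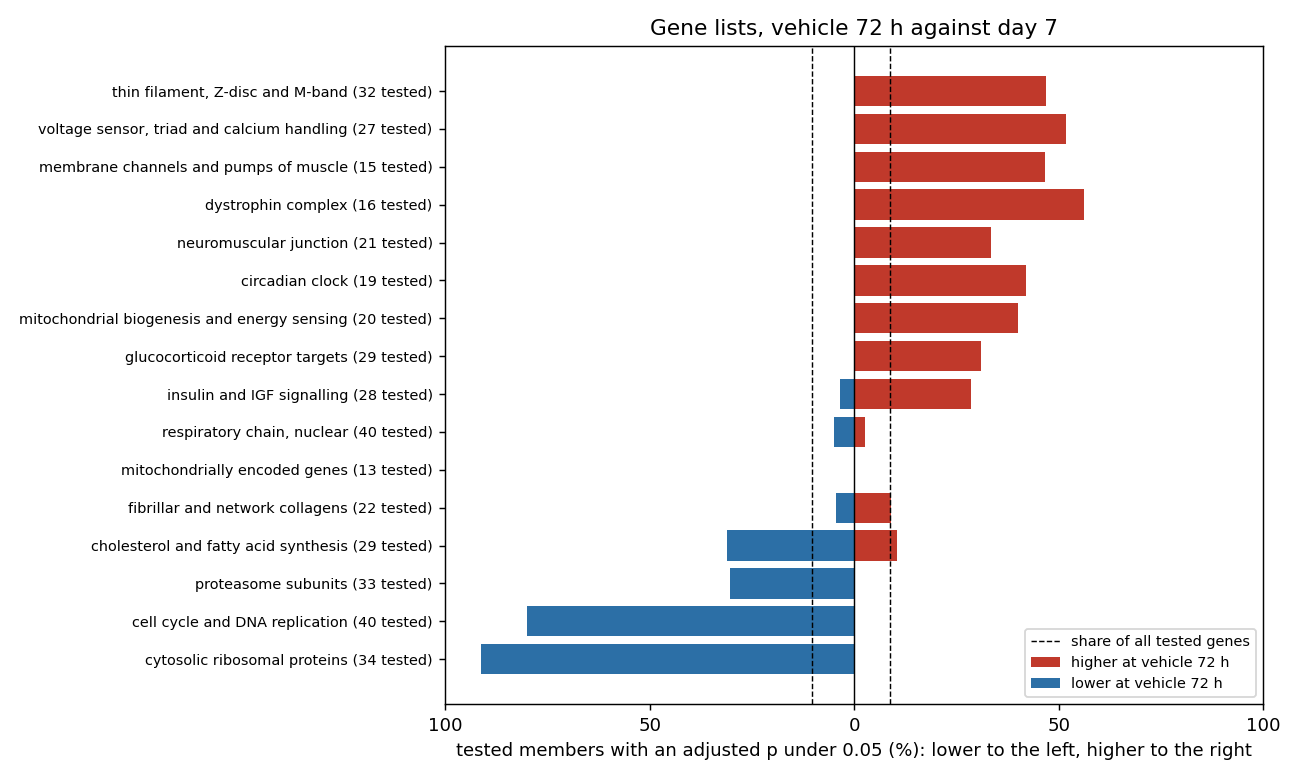
Percent of the tested members of 16 gene lists called lower (blue, to the left) and higher (red, to the right) at vehicle 72 h relative to day 7, with dashed lines at the shares of all 16257 tested genes, 10.3% lower and 8.77% higher. Cell cycle and ribosomal protein genes lie to the left and contractile, triad and clock genes to the right.

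The vehicle 24 h libraries, collected at day 8, show the levels between the 2 groups. Relative to day 7, vehicle 24 h had 16 genes higher (0.0984%) and 18 lower (0.111%), 0.209% of those tested. Relative to vehicle 24 h, vehicle 72 h had 434 higher (2.67%) and 275 lower (1.69%), 4.36% of those tested, and without vehicle 72 h replicate 1 it had 50 higher (0.308%) and 38 lower (0.234%), 0.541% in all. Neither count was stable. Vehicle 24 h against day 7 gave 223 genes without vehicle 72 h replicate 3, 57 without its replicate 2, 4 or 3 without its replicate 1 or 4, 4 without day 7 replicate 3 and none without day 7 replicate 1 or 4, by limma, where 2118 and 2007 genes had an unadjusted p under 0.05. For the second step, vehicle 72 h against vehicle 24 h gave 88, 36 and 5 genes without vehicle 72 h replicates 1, 2 and 3, and 455 without day 7 replicate 4. The steps are therefore given as values, and they share libraries with the main comparison.

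Lmod2 had 50.3, 67.3, 76.8 and 62.6 TPM at day 7, 96.2, 119, 75.2 and 114 TPM at vehicle 24 h and 151, 147, 193 and 154 TPM at vehicle 72 h. Its means were in that order, and vehicle 24 h replicate 3 lay within the day 7 range. Asb2 had 5.80, 6.91, 7.45 and 5.40 TPM at day 7, 11.8, 20.1, 9.88 and 18.4 TPM at vehicle 24 h and 30.5, 26.0, 41.9 and 22.3 TPM at vehicle 72 h, and here each vehicle 24 h library lay between the other groups. Aqp1 had 11.6, 7.63, 7.57 and 8.34 TPM at day 7, 7.83, 19.9, 7.53 and 25.8 TPM at vehicle 24 h and 31.1, 34.4, 32.1 and 30.5 TPM at vehicle 72 h. Vehicle 24 h replicates 2 and 4 stood well above day 7, and replicates 1 and 3 stood with it. Pclaf had 40.1, 12.9, 12.1 and 20.3 TPM at day 7, 9.69, 0.735, 5.40 and 0.819 TPM at vehicle 24 h and 3.28, 2.54, 0.332 and 2.70 TPM at vehicle 72 h. The same replicates 2 and 4 were the low ones at vehicle 24 h, below most of the vehicle 72 h libraries. Mymx had 215, 256, 234 and 237 TPM at day 7, 247, 292, 250.5 and 293 TPM at vehicle 24 h and 142, 154, 181 and 173 TPM at vehicle 72 h. Each vehicle 24 h library was above at least 3 of the 4 day 7 libraries, and all vehicle 72 h libraries were below both other groups. Igfbp2 had 198, 60.7, 125 and 92.2 TPM at day 7, 50.9, 44.9, 142 and 50.7 TPM at vehicle 24 h and 16.1, 25.6, 31.6 and 29.4 TPM at vehicle 72 h. Vehicle 24 h replicate 3 kept a day 7 level, and the other vehicle 24 h libraries lay between the groups.

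**Figure D5:**
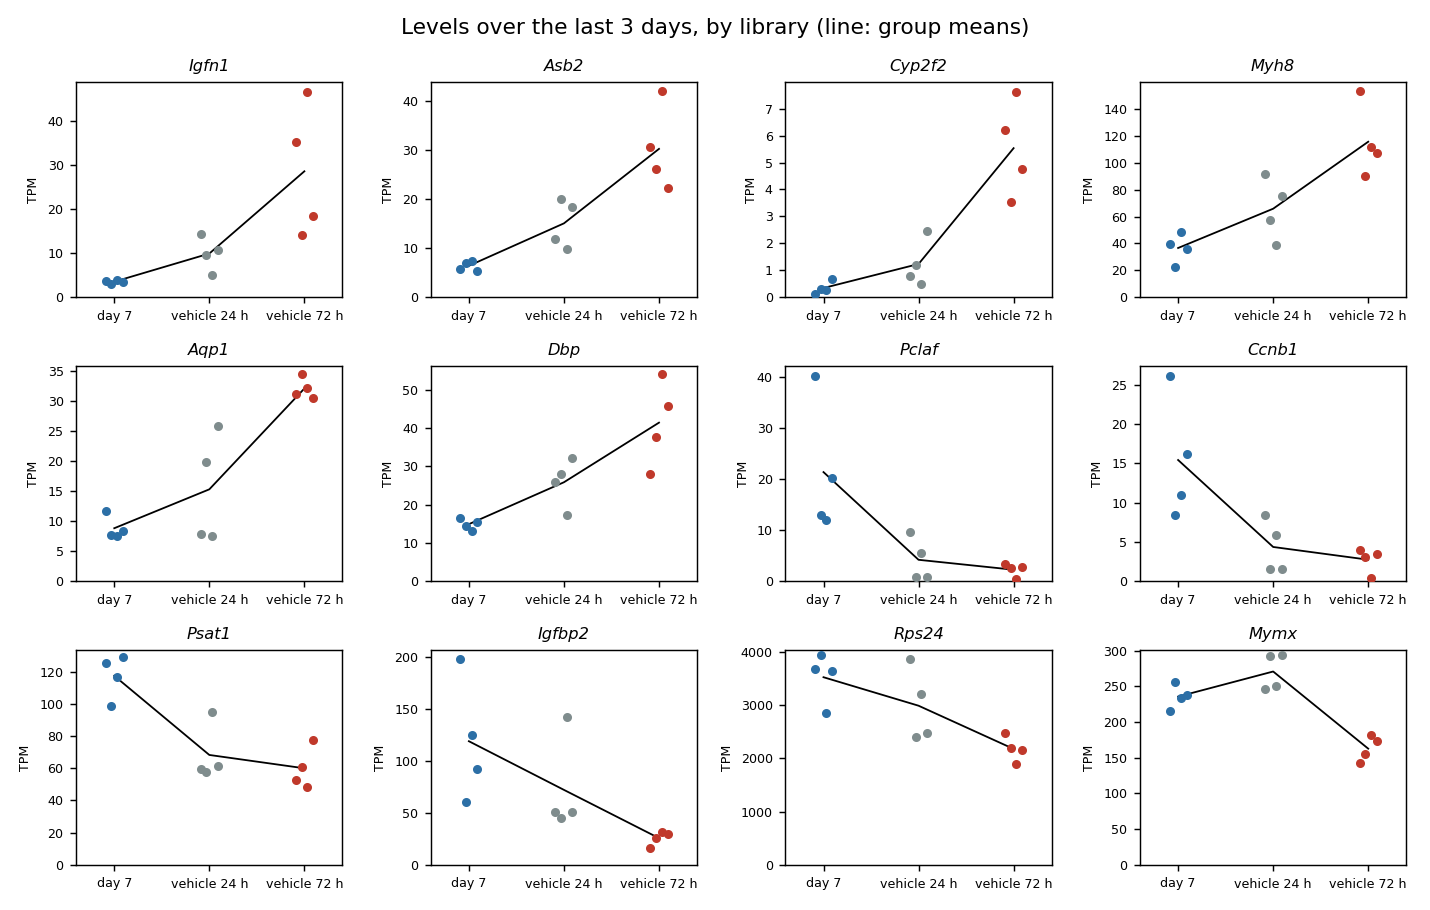
TPM of 12 genes at day 7, vehicle 24 h and vehicle 72 h on linear axes, 1 point per library with a line through the group means (n = 4). The means of Asb2 and Myh8 are higher at each later time, those of Igfbp2 and Psat1 are lower, and the vehicle 24 h points of Aqp1 and Pclaf fall into a high and a low pair.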

How the data were processed

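Per the labels' protocols, libraries of polyadenylated RNA from C2C12 cultures were made with an mRNA kit that keeps strand. Per the submitters' processing notes, the tools named are Salmon, kallisto 0.51.1 and DESeq, with the GRCm39 build; their roles and settings are not given in the sources used here. The authors deposited 2 tables of 48544 genes: normalised values on a log2 scale, shrunken for low genes, and TPM, which sum to 1000000 per library. Neither holds read counts, so the depth and the counting error are unknown. Symbols were matched by Ensembl ID for 48291 genes.

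Differences were tested on the deposited log2 values with limma 3.58.1 in R 4.3.3 (trend on the mean, 1 mean per group, 24 libraries), for genes at 10 or more on the linear scale in at least 4 libraries, with Benjamini-Hochberg adjustment over 16257 genes and a threshold of 0.05. The procedure was tested on simulated data with 16257 genes and normal noise drawn independently for each gene and library. In vehicle 72 h minus day 7, it called 14%, 60% and 86% of 50 genes each shifted by 0.25, 0.5 and 1 log2, and 5 unshifted genes. Deviations that many genes of a library share were not simulated, so these rates need not hold for the real libraries. Levels and fold changes are from TPM. The alternatives left out single libraries, used log2(TPM + 0.1), log2(TPM + 1), median-centred TPM, no filter, quantile normalisation, fewer libraries or a replicate block. Members and gene lists were chosen with earlier results of these data known. The text names the 12 genes highest and the 12 lowest by mean log2(TPM + 0.1) without vehicle 72 h replicate 1 (called with and without that library in the same direction, at least 5 TPM in the higher group, no predicted genes), called members of the lists, and members central to a list. Promoter windows, 250 bases before to 50 after a start, are RefSeq's on GRCm38.p6, and no coordinates of the authors' build were used. Some items are not reported here.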

Additional observations from a re-analysis of the deposited data

Results flagged for a closer look

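Dixon's criterion on log2(TPM + 0.1) was used, where chance alone flags about 1 in 20. It was applied to 292 groups of 4 libraries, 1 for each tested gene named and each group, without Mcm5, Mcm7 and Ccne2. In 21 of these (7.19%), 1 library was set far from the others. Of these, 11 are in vehicle 72 h replicate 3 and 3 in vehicle 72 h replicate 1.

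Vehicle 72 h replicate 3 was lowest of its group, and far below the next library, in genes of cell division. Ccnb1 was at 0.435 TPM there (next 3.03), Ccnb2 at 0.29 (next 2.89), Cenpa at 0.953 (next 5.08), Nuf2 at 0.171 (next 1.99), Pbk at 0.397 (next 3.15), Pclaf at 0.332 (next 2.54) and Pimreg at 0.194 (next 2.78). It was also lowest for E2f1, at 9.57 TPM (next 11.8), and for Psme1, at 21.8 TPM (next 27.4). It was highest for Atg9a, at 66.3 TPM (next 43.2), and for Lmod2, at 193 TPM (next 154). This library also had the highest mitochondrially encoded share of TPM, 15.8%. The part of that share in these values was not tested.

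Vehicle 72 h replicate 1 was highest of its group for Serpina3n, at 25.3 TPM (next 0.115), for Tsc22d3, at 108 TPM (next 58.1), and for Fbln1, at 60.3 TPM (next 39.6).

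At day 7, replicate 1 was highest for Ccn2, at 107 TPM (next 55.4), and lowest for Il18, at 17.3 TPM (next 22.1). Replicate 2 was lowest for Cacna2d1, at 39.5 TPM (next 51.3). Replicate 3 was lowest for Akr1c14, at 1.65 TPM (next 2.03), and highest for Mymk, at 888 TPM (next 693), and for Ppargc1a, at 0.496 TPM (next 0.273). Replicate 4 was lowest for Pax7, at 1.56 TPM (next 2.35).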

How the results depend on the processing

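Every called gene named in the text, apart from Mcm5, Mcm7 and Ccne2, kept its direction under each alternative in which it was tested. There were 21 alternatives for all but Esrrg, Perm1 and Tgfbi, which were tested in 16. Of 119 such genes, 87 also kept the call in each, 32 lost it in at least 1, and 8 (Chrnd, Des, Fbxo32, Glul, Musk, Myl4, Ppargc1a and Tsc22d3) in more than 10 of them. Of 27 named genes that did not pass, 3 (Atp2a1, Cdc6 and Mylpf) passed under some alternative. Leaving out 1 library at a time, the 3104 genes called for vehicle 72 h against day 7 became between 1207 and 3245, the 32 lower cell cycle genes between 14 and 32, the 31 lower ribosomal protein genes between 9 and 33, the 15 higher thin filament, Z-disc and M-band genes between 7 and 20, and the 14 higher triad genes between 7 and 17. The 8 clock genes stayed between 6 and 9. In the fewer-library settings the number of libraries falls, which by itself widens the errors; other causes were not tested. The count was 1564 without vehicle 72 h replicate 1 and day 7 replicate 1, and the thin filament and triad counts were then 7 and 7. The thin filament count was 8 in a fit of the 8 libraries, 7 in a fit of the day 7 and vehicle libraries, 9 on log2(TPM + 0.1) without vehicle 72 h replicate 1, and 7 on median-centred TPM without that library, where the triad count was 6.

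For vehicle 72 h against vehicle 24 h, the 709 calls became between 5 and 962 without single libraries, 380 without replicate 1 of the vehicle and dexamethasone 72 h groups, 60 without replicate 1 of vehicle 72 h and day 7, 270 and 264 on log2(TPM + 0.1) and log2(TPM + 1), 100 on median-centred TPM without vehicle 72 h replicate 1, 94 with no filter and 2 in a fit of the day 7 and vehicle libraries. On log2(TPM + 0.1) without vehicle 72 h replicate 1, limma called 0, with 4348 genes at an unadjusted p under 0.05. For vehicle 24 h against day 7, the 34 calls became between 0 and 223 without single libraries, 11 without both 72 h replicates 1, 4 and 5 on log2(TPM + 0.1) and log2(TPM + 1), 1 on the first of these without vehicle 72 h replicate 1, and 4 with no filter. Limma called 0 in a fit of the day 7 and vehicle libraries and 0 without replicate 1 of vehicle 72 h and day 7, with 2463 and 2111 genes at an unadjusted p under 0.05. Some of these alternatives were chosen after seeing the data.

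Replicate numbers come from the titles alone. In the 12 same-number pairs among day 7, vehicle 24 h and vehicle 72 h, deviations from the group means correlated between 0.43 and 0.57 for replicate 1 and between -0.25 and 0.24 for the others, so the numbers were not taken as pairs. With the replicate block 3630 genes were called for vehicle 72 h against day 7, 1067 for vehicle 72 h against vehicle 24 h (88 without vehicle 72 h replicate 1) and 109 for vehicle 24 h against day 7. The share of dexamethasone 72 h replicate 1 in vehicle 72 h replicate 1 was 0% by the rule set first (median of 23 genes, 13 of them listed at 0) and 13.2% over genes found in all 4 dexamethasone 72 h libraries, a rule chosen after seeing the data. Depth is unknown for both tables, and low genes carry more error than TPM shows.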
